A study of Mus musculus with 43 samples.

Results

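Brain gene expression was compared between mice lacking insulin receptor substrate 1 (Irs1-/-) and wild type mice when both were kept on dietary restriction (DR). The table was searched by 1 rule: an entry was kept when the status was OK in both groups and at least 1 of them had an FPKM of 1 or more (FPKM, fragments scaled to transcript length and sequencing depth). This kept 15547 of 42349 entries. Of these, 205 were listed at 0 in the group labelled KODR and 80 in WTDR, and the other 15262, above 0 in both, were tested. All mice were female and 15 months old. The KODR and WTDR mice had been held at 30% DR for 12 months, after a stepwise reduction, and were fed once a day. The KO is global, so every cell of the animal carries it. The same tissue was sequenced from ad libitum (AL) fed mice of both genotypes, KOAL and WTAL, which served as a second genotype contrast with no group in common. Each of KODR, WTDR and KOAL is 3 libraries in the labels and WTAL is 2, the numbers of mice given there. The authors deposited 1 pooled FPKM per gene and group with a 95% interval, so no value of a single mouse or library was used here and the depth of each library is unknown.

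IRS1 is a docking protein that passes the signal of the insulin and IGF1 receptors on to PI3 kinase and AKT. In brain this pathway acts in neurons and glia, where it is known for effects on feeding, growth and metabolism. Brain tissue is a mixture of regions, and many transporters, transcription factors and secreted proteins are made almost wholly in one of them: the dopamine transporter in the ventral midbrain, the serotonin transporter in the raphe, glycine transporter 2 in the brainstem and spinal cord, and cerebellin 3 in cerebellar granule cells. In bulk tissue, fewer cells of a type and less RNA per cell cannot be told apart.

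Irs1 was higher in the group labelled KODR. The gene lies on chromosome 1 of GRCm38 from 82233101 to 82291416, on the minus strand. Its FPKM was 1.62 in WTDR (95% interval 1.03 to 2.21) and 4.14 in KODR (2.41 to 5.87), against 2.47 in WTAL and 3.49 in KOAL. The intervals of the restricted groups do not overlap, and the direction goes against the genotype label. The log2 difference of 1.35 passed an FDR of 10%, and the call was lost under 7 of the alternative settings, an FDR of 5% and centring on the median of all entries among them. In liver and muscle Irs1 was also higher in the labelled KO groups under both diets, as in KOAL liver, at 5.95 FPKM against 4.70 in WTAL. In white fat it was higher under AL, at 5.37 against 2.47, and lower under DR, at 2.58 against 6.56. These other tissues were not tested. One value per gene cannot separate the exons, and the directions below are those of the labelled groups.

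At an FDR of 10%, 151 entries were up-regulated in the group labelled KODR, which is 0.989% of the 15262 tested, and 26 were down-regulated, which is 0.170%. The test was a two-sided Wald test on the log2 ratio, with the SD read from the deposited interval and Benjamini-Hochberg adjustment over all tested entries. The median log2 difference over all tested entries was 0.23, and 64.9% of entries were above 0. With values centred on that median, the split became 62 up-regulated and 44 down-regulated. With a t distribution on 4 degrees of freedom in place of the normal one, 3 were up-regulated and 2 down-regulated. In simulated data the FDR held where the error was log-normal and was exceeded with gamma or normal error, so the calls are less certain than that rate says.

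**Figure D1:**
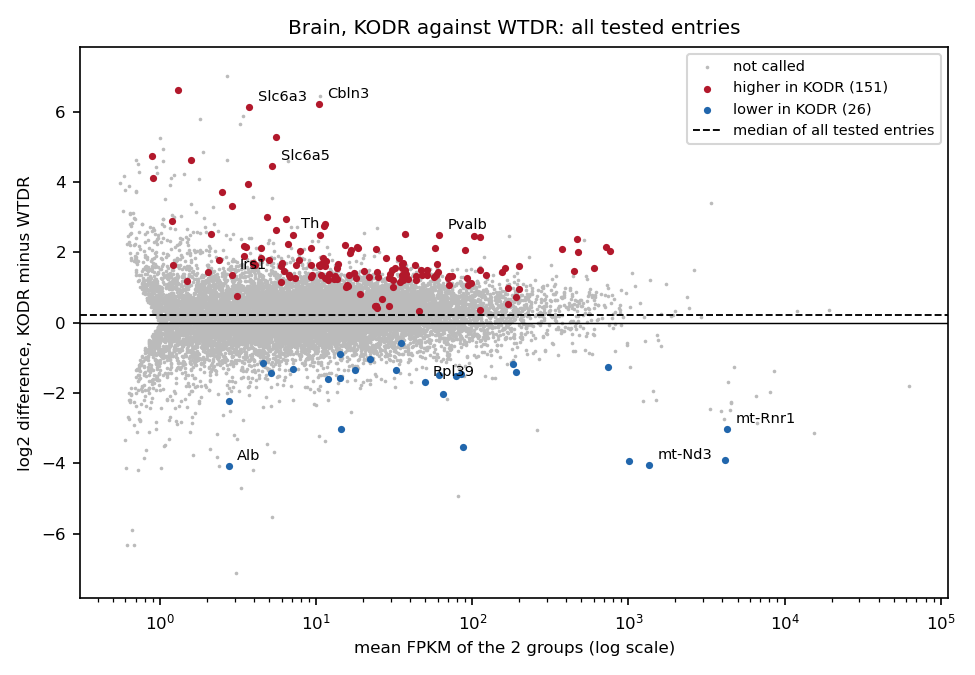
Each point is a tested entry, with the mean FPKM of KODR and WTDR on a log axis against the log2 difference, KODR minus WTDR. Red marks the 151 entries higher in KODR and blue the 26 lower, and the dashed line is the median difference of 0.23.

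The promoter sequences below belong to genes of midbrain dopamine neurons, the marker list with the most calls. RefSeq windows on GRCm38.p6 were found for 6 of the 8 called genes, and 3 of the 8 windows are shown, as the 250 bases before the annotated start and 5′ to 3′ on the gene's strand. Th is at chr7:142899996-142900245 (- strand), Slc6a3 at chr13:73536497-73536746 (+ strand) and Ddc at chr11:11898145-11898394 (- strand, 1 of its 2 windows). Both strands were searched for the cAMP response element TGACGTCA, its first letters TGACG (which overlap it), the Nurr1 response element AAAGGTCA, the homeodomain motif TAATTA, the Pitx motif TAATCC and the E-box CAGCTG, and capitals mark every match.
Th: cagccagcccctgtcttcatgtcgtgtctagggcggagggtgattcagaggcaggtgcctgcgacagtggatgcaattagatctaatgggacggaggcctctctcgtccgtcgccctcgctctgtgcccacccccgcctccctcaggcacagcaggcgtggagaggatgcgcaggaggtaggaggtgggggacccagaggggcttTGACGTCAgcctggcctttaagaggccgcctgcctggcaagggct
Slc6a3: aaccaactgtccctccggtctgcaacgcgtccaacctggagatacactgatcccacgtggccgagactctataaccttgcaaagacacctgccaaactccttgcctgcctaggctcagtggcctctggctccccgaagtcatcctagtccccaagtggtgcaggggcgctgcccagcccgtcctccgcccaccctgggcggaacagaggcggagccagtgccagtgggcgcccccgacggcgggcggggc
Ddc: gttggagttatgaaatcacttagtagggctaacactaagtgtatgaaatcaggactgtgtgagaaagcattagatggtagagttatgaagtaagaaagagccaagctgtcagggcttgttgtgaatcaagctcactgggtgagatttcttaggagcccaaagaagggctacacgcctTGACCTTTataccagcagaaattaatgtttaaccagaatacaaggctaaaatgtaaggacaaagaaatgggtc
The Th window holds the cAMP response element, which 1.55% of 32851 RefSeq windows of that length hold. The Ddc window shown holds the Nurr1 element on its other strand, which 1.34% of windows hold. The second Ddc window, not shown, does not hold it, and of the 8 windows searched only 1 does. No match to either was found in the Slc6a3 window, nor to the homeodomain or Pitx motif in any of the 8 windows, where 4.84% and 6.25% of all windows have them. The short form TGACG is in 17.8% of windows and the E-box, found before Slc18a2, in 13.0%. A match is a match of letters only.

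Genes of midbrain dopamine neurons were higher in the group labelled KODR. Of 13 genes listed, 10 were tested and 8 were up-regulated, with a median log2 difference of 2.33 against 0.23 over all entries. Of the 10, 4 (Slc6a3, Slc18a2, Chrna6 and En1) passed the FPKM limit through KODR alone and so had to be higher there. The other 6, at 1 FPKM or more in WTDR, were also positive. Slc6a3, the dopamine transporter, was 0.104 FPKM in WTDR (interval 0 to 0.231) and 7.34 in KODR (3.81 to 10.9), a log2 difference of 6.14 (SE 0.94). The intervals are far apart. Th, tyrosine hydroxylase, which limits the rate of dopamine synthesis, was 2.13 in WTDR (0.803 to 3.46) and 12.1 in KODR (3.03 to 21.1). Its log2 difference was 2.50 (SE 0.70), its intervals overlap, and the call was lost at an FDR of 5% and after centring on the median. Slc18a2, which loads monoamines into vesicles, had a log2 difference of 2.54 (SE 0.66). Ddc, the decarboxylase that follows Th, had 2.13 (SE 0.58). Ret, the receptor tyrosine kinase for GDNF, was 1.30 FPKM in WTDR and 5.80 in KODR (log2 difference 2.16, SE 0.44). The other genes called were Chrna6, a nicotinic receptor subunit, with 4.12 (SE 1.05), the transcription factor En1 with 6.63 (SE 1.97) and Aldh1a1, a retinaldehyde dehydrogenase, with 1.41 (SE 0.32). Nr4a2 (0.90, SE 0.55) and Sncg (0.60, SE 0.62) did not pass. Foxa1, Foxa2 and Pitx3 were under the FPKM limit. After centring on the median, or within bins of transcript GC content, 5 of the 8 remained called. Slc6a3, Chrna6 and En1 have an SD over 50% of the FPKM in WTDR, where simulated gamma error gave most false calls.

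Single genes of the serotonin and noradrenaline nuclei and of the hindbrain were up-regulated in the group labelled KODR. In the first list, 7 of 10 genes were tested and 2 passed. Of the 7, 5 reached the FPKM limit in KODR alone, both called genes among them, so the direction of these was set by the limit. Slc6a4, the serotonin transporter, was 0.278 FPKM in WTDR (0 to 0.681) and 10.9 in KODR (3.07 to 18.6), a log2 difference of 5.29 (SE 1.17). Tph2, the neuronal tryptophan hydroxylase, was 0.449 in WTDR and 6.86 in KODR, a log2 difference of 3.93 (SE 1.20). Both have an SD over 50% of the FPKM in WTDR. For the hindbrain and spinal list, 6 entries were tested and 2 passed. Of the 6, 4 reached the limit in KODR alone, the called Slc6a5 among them. Slc6a5, the glycine transporter of inhibitory brainstem neurons, was 0.457 in WTDR (0.0979 to 0.817) and 9.99 in KODR (3.23 to 16.8), a log2 difference of 4.45 (SE 0.75). Glra1, the adult glycine receptor subunit, was 1.07 in WTDR and 8.59 in KODR, a log2 difference of 3.01 (SE 0.86). Tph2 and Glra1 lost their call at an FDR of 5%, after centring on the median and within GC bins, and Slc6a4 and Slc6a5 kept it in all of these. Hox genes of this list are low, and Hoxb5, at 0.143 FPKM in WTDR and 2.18 in KODR, did not pass (log2 difference 3.92, SE 1.30).

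Cerebellar genes followed in size. Of 14 tested, 13 were positive and 5 were up-regulated, with a median log2 difference of 1.74. The limit was reached in KODR alone by 5 of the 14, the called genes Cbln3, Fat2 and En2 among them, so the direction of these was set by the limit. Of the other 9, 8 were positive. Cbln1, a secreted synapse organiser that granule cells and some neurons outside the cerebellum make, was 11 FPKM in WTDR (5.91 to 16.1) and 62.8 in KODR (39.3 to 86.3), a log2 difference of 2.51 (SE 0.43). Cbln3, its granule cell relative, was 0.276 in WTDR (0 to 0.692) and 20.6 in KODR (4.87 to 36.3), with an SD over 50% of the FPKM in WTDR. Fat2, a granule cell cadherin, had a log2 difference of 4.75 (SE 0.81), and En2, a patterning factor, had 3.72 (SE 0.67). Car8, abundant in Purkinje cells, had 2.25 (SE 0.49). Pcp2, a Purkinje cell protein, was listed at 0.239 and 21 with a wide interval, and did not pass (log2 difference 6.45, SE 3.23). The 5 genes remained called after centring on the median and within GC bins.

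**Figure D2:**
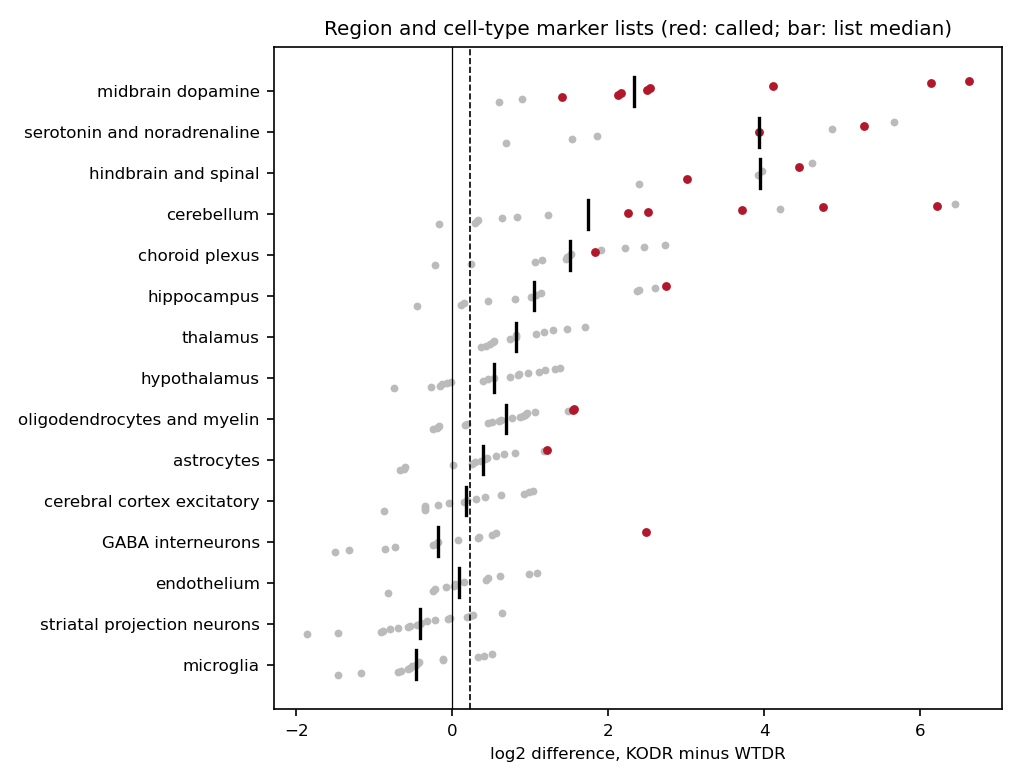
Each point is a tested member of a marker list, placed by its log2 difference, KODR minus WTDR. Red points passed an FDR of 10%, black bars are list medians and the dashed line is the median of all entries. The midbrain dopamine, serotonin, hindbrain and cerebellum lists lie to the right, with medians between 1.74 and 3.95 over entries of which 4 or 5 a list reached the FPKM limit in KODR alone, and the striatal and microglial lists to the left.

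Forebrain lists gave fewer calls. In hippocampus, 1 of 12 tested genes passed, where 0.989% of all entries were up-regulated: C1ql2, a secreted protein of dentate granule cells, at 2.91 FPKM in WTDR (1.39 to 4.43) and 19.4 in KODR (11.3 to 27.5), a log2 difference of 2.74 (SE 0.48). In thalamus, 0 of 13 passed, and all 13 were positive, with a median of 0.82. Excitatory cortical genes had a median of 0.17, below that of all entries, with 0 of 14 called. Striatal projection neuron genes lay below it, with 15 of 19 negative, a median of -0.41 and 0 called. Tac1, the substance P precursor, was 57.8 FPKM in WTDR and 21 in KODR (log2 difference -1.46, SE 0.51) and did not pass. Adora2a, an adenosine receptor of striatal neurons, was 27.6 and 15.9. The hypothalamus list gave 0 of 17 and a median of 0.54.

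Single genes passed in other neuronal lists, where 0.989% of all entries were up-regulated. Pvalb, the calcium buffer of fast-spiking interneurons, was 18.5 FPKM in WTDR (11 to 26) and 104 in KODR (62.4 to 145), a log2 difference of 2.49 (SE 0.41). In the AL groups Pvalb was 56.5 in WTAL and 58.0 in KOAL. The other 12 interneuron genes did not pass, and the list median was -0.18. Ache, acetylcholinesterase, had 1.51 (SE 0.44) and was the only 1 of 8 cholinergic entries to pass. Fosb was the only 1 of 21 immediate early genes, with a log2 difference of 0.76 and a narrow interval. Ache lost its call after centring on the median, and both Ache and Fosb lost it within GC bins.

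Among glial, vascular and ventricular lists, the oligodendrocyte list had the most calls, 2 of 20, with 16 positive and a median of 0.69. Over all entries 0.989% were up-regulated and 64.9% were above 0, so a single call in a small list says little of its cell type. None of the 6 calls given here for these lists held within GC bins, and those of Mag, Olig1, Fgfr3 and Kl were also lost after centring on the median. For each of these 6 genes WTDR also stood below WTAL and KOAL, which was not tested. Mag, for example, was 214 FPKM in WTAL and 238 in KOAL, and Olig1 was 157 and 133. Gjb1, a gap junction protein, was 16.1 FPKM in WTDR (9.18 to 23.1) and 47.4 in KODR (33.5 to 61.3), a log2 difference of 1.55 (SE 0.38). Mag, myelin-associated glycoprotein, was 82.2 and 242, with 1.56 (SE 0.45). Mbp, myelin basic protein, did not pass (1.49, SE 1.16). In the precursor list Olig1 was the 1 of 10 called, with 1.37 (SE 0.38), and among 14 astrocyte genes Fgfr3 had 1.22 (SE 0.37). Foxj1, the ciliogenesis factor of ependyma, had 1.62 (SE 0.36), 1 of 8. In choroid plexus, 12 of 13 entries were positive with a median of 1.51, 5 of the 13 having reached the FPKM limit in KODR alone, and Kl, alpha-Klotho, was the 1 called, with 1.83 (SE 0.52). Ttr, transthyretin, was 52.4 and 289 and did not pass (log2 difference 2.46, SE 0.85). Microglial genes had 12 of 15 negative, a median of -0.47 and 0 called. Endothelial, mural and meningeal lists gave 0 calls.

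Markers of other tissues were mixed. The pituitary list had 0 of 8 genes above the FPKM limit. Of 6 red blood cell entries, 3 were up-regulated: Hba-a1, at 264 FPKM in WTDR and 1179 in KODR (log2 difference 2.16, SE 0.53), Hba-a2 with 2.03 (SE 0.49) and Hbb-bt with 1.6 (SE 0.44). Hba-a1 and Hba-a2 are near-identical copies, so their split is uncertain. Within GC bins 0 of the 6 passed. Under AL all 6 were also positive and 0 passed, with Hba-a1 at 295 FPKM in WTAL and 4085 in KOAL (interval 0 to 9456). Alas2, the erythroid haem synthesis enzyme, was 4.03 and 14 and did not pass. All 7 liver entries tested were negative, 4 of them having reached the FPKM limit in WTDR alone, and Alb, albumin, was down-regulated, from 5.22 FPKM in WTDR (2.77 to 7.67) to 0.309 in KODR (0 to 0.682, an SD over 50% of the FPKM). The part of blood or of other tissue in the calls was not tested.

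Under AL feeding, 9 of the 10 midbrain dopamine genes had a negative genotype difference, and 2 of the 10, Slc6a3 and Chrna6, passed. Slc6a3, Chrna6 and Slc18a2 reached the FPKM limit in WTAL alone, so their direction under AL was set by the limit. Over all 15264 entries tested under AL, 26 were higher in KOAL and 5 lower at an FDR of 10%, so 0 calls in a short list say little. Slc6a3 was 16.1 FPKM in WTAL and 0.312 in KOAL, a log2 difference of -5.69. Subtracting the AL contrast from the DR contrast gave 11.8 and passed an FDR of 10%. Of 14691 entries tested for this interaction, 61 passed, 0.415%, and 24 were positive and 37 negative. For the midbrain dopamine list 7 of 10 entries passed, and the list median was -2.0 under AL. Among the 7, Slc6a3, Slc18a2 and Chrna6 reached the FPKM limit only in KODR under DR and only in WTAL under AL. The sign of their interaction was thus set by the limit. En1 reached it in KODR alone under DR. In the hindbrain list 3 of 5 entries tested under AL were negative and 2 positive, and 0 passed. Slc6a5 was 8.49 in WTAL and 0.854 in KOAL, a difference that did not pass, while its interaction of 7.76 did. Tph2 was 10.2 in WTAL and 0.706 in KOAL, which did not pass either, and its interaction of 7.79 passed. For Slc6a5 and Tph2 the sign of the interaction was set by the limit in the same way. The cerebellum list had 6 negative and 5 positive entries under AL, with 0 passing. Cbln1 was 18 in WTAL and 18.1 in KOAL, and its interaction of 2.51 did not pass. Of the other called cerebellar genes, En2 (1.07 and 0.327), Car8 (2.66 and 1.29) and Fat2 (0.843 and 0.0469) were lower in KOAL. Cbln3 was not, at 0.464 in WTAL and 0.553 in KOAL. Fat2 and Cbln3 were under the FPKM limit in both AL groups. In this list En2 was the 1 entry whose interaction passed, with a sign also set by the limit. The lists were not tested against each other.

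**Figure D3:**
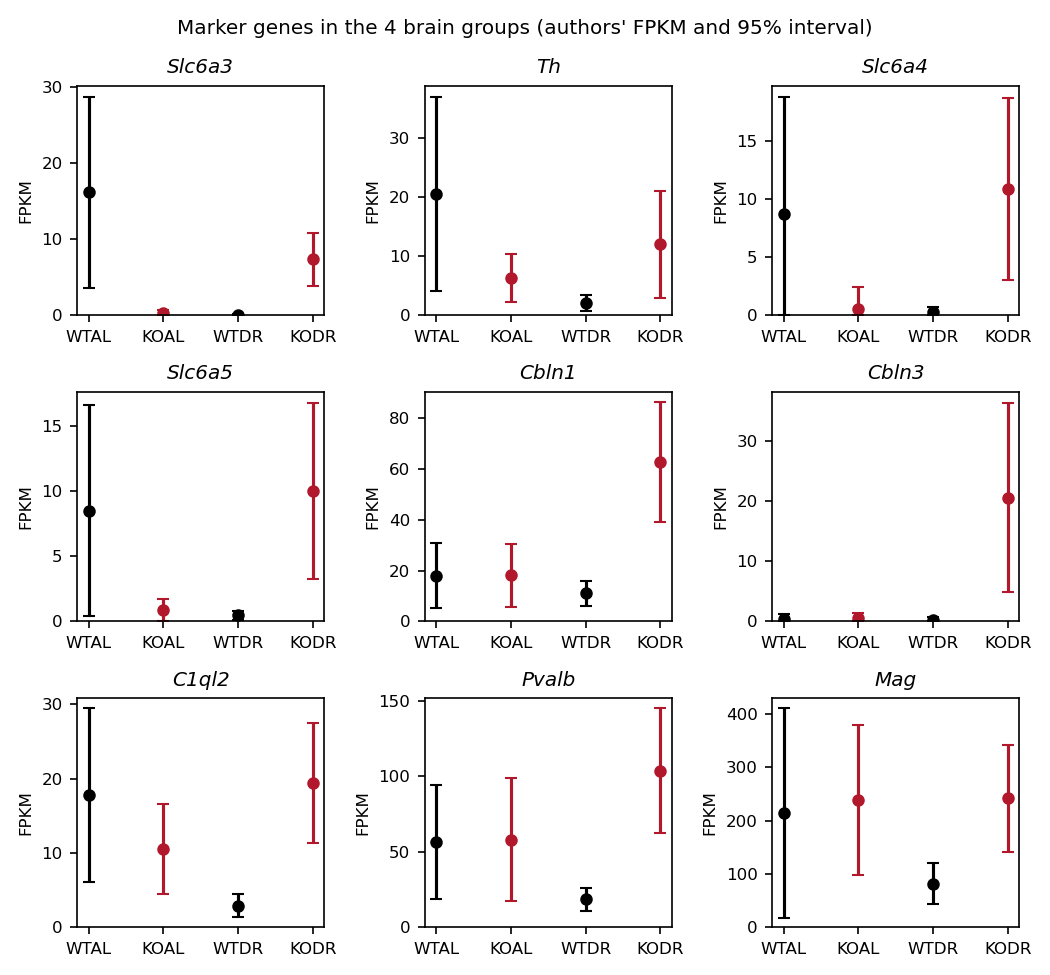
The authors' FPKM and 95% interval of 9 marker genes in WTAL, KOAL, WTDR and KODR, with KO groups in red and each axis starting at 0. Slc6a3, Slc6a4 and Slc6a5 are near 0 in KOAL and WTDR and above 7 in WTAL and KODR, while Cbln1 and Cbln3 are highest in KODR.

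Mitochondrially encoded RNA made up a smaller share in the group labelled KODR, a value that was not tested. It held 12.1% of the summed FPKM in KODR and 33.6% in WTDR, against 28.2% in KOAL and 7.88% in WTAL. The SD of these shares, from the deposited intervals with entries taken as independent, was wide. It was 3.18 percentage points in KODR, 17.8 in WTDR, 18.1 in KOAL and 3.92 in WTAL. Much of it is mt-Tm, a tRNA entry, which alone held 4.70% in KODR and 14.1% in WTDR. Without tRNA entries the shares were 3.77% and 18.2%. The tRNA entries were mixed, and of 18 tested 7 were negative and 11 positive, with a median log2 difference of 0.21. The tRNA entries mt-Td (-1.26) and mt-Th (-1.40) were down-regulated and mt-Tt (2.39) and mt-Ty (0.73) up-regulated, and all 4 calls rest on very narrow deposited intervals. Of the 10 protein-coding entries, 9 were negative, with a median log2 difference of -2.36, and 1 passed. That was mt-Nd3, a complex I subunit, at 2565 FPKM in WTDR (944 to 4186) and 154 in KODR (80.1 to 229), a log2 difference of -4.05 (SE 0.57). The 12S rRNA gene mt-Rnr1 was 7624 and 940 (log2 difference -3.02, SE 0.65). The list's median under AL was 2.54. The same groups rank in the reverse order for Slc6a3, and the part of one in the other was not tested.

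**Figure D4:**
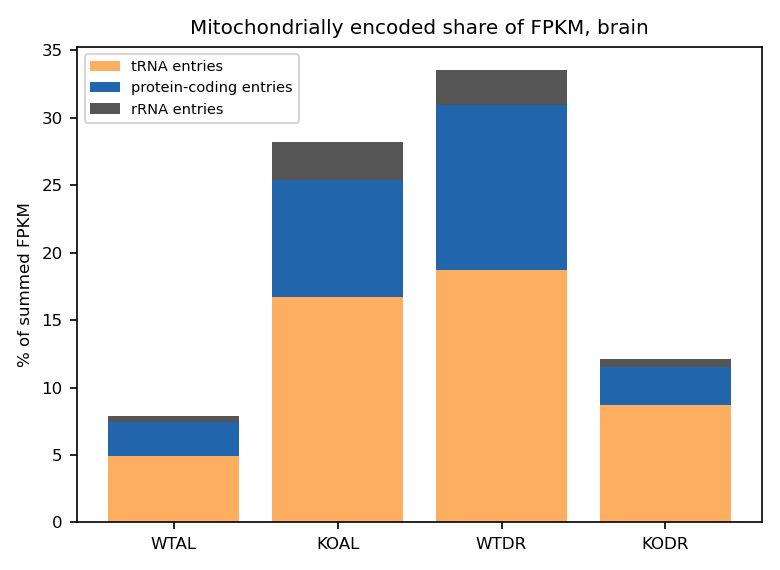
Bars give the share of summed FPKM from mitochondrially encoded entries in each brain group, split into tRNA, protein-coding and rRNA entries. The share is 12.1% in KODR and 7.88% in WTAL, below the 33.6% of WTDR and the 28.2% of KOAL. The bars show no spread, and its SD is 17.8 percentage points in WTDR and 18.1 in KOAL.

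Among the other down-regulated entries, Gm28438 and Gm10925 on chromosome 1 are annotated as unprocessed pseudogenes. Their log2 differences were -3.94 (SE 0.57) and -3.92 (SE 1.02). Their GENCODE transcripts match mt-Nd3 at 344 of 345 bases and mt-Atp6 at 678 of 678, so reads from the mitochondrial genome can be counted there and their own level is uncertain. Chchd10, a protein of the mitochondrial intermembrane space, was 125 FPKM in WTDR (88.1 to 161) and 45.5 in KODR (28.2 to 62.9), a log2 difference of -1.45 (SE 0.35). The joined entry of Mir700 and Rcan3, a calcineurin regulator, was 160 and 13.6, and its interval in KODR (7.64 to 19.6) lay far below that in WTDR (119 to 200). Sar1b, a GTPase of vesicle export from the endoplasmic reticulum, had -1.59 (SE 0.46), and Mcee, methylmalonyl-CoA epimerase, had -1.56 (SE 0.37).

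Ribosomal and nuclear mitochondrial genes gave 1 call, a number near what the shares of all entries called (0.989% higher and 0.170% lower) would give in lists of this size. Rpl39 was the 1 down-regulated entry of 79 ribosomal protein entries, at 75.7 FPKM in WTDR (46.1 to 105) and 23.4 in KODR (10.7 to 36.1), a log2 difference of -1.69 (SE 0.48). The list's median was -0.30, and 53 of the 79 were negative. Nuclear genes of complex I gave 0 of 36 calls with a median of 0.01, which became negative after centring. Those of complexes II to V gave 0 of 40 with a median of -0.15. In the proteasome list the joined entry of Psmb5, a catalytic subunit, and Mir686 was the 1 of 32 called, at 189 and 768 FPKM (log2 difference 2.02, SE 0.46).

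Insulin and IGF signalling genes other than Irs1 gave 0 calls in 41 tested entries, with 33 positive and a median of 0.30. Foxo4, a transcription factor that AKT holds in check, was 9.93 FPKM in WTDR and 25.4 in KODR (log2 difference 1.36, SE 0.62). Irs2, the other widely expressed substrate, was 18.5 and 31.6 (0.77, SE 0.39). With the SD divided by the square root of the number of libraries, 10 of the 41 were up-regulated, where 14.5% of all entries were. Glutamate receptors, GABA receptors, the postsynaptic density, the synaptic vesicle cycle, feeding peptides, clock genes and sterol synthesis also gave 0 calls.

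Stress and immune lists gave 1 call each, of 19 chaperone, 12 glucocorticoid target and 16 antigen presentation and complement entries, where 0.989% of all entries were up-regulated. The calls of Hspa1a and H2-D1 were lost after centring on the median and within GC bins, and that of Cdkn1a was kept in both. Hspa1a, an inducible HSP70, was 5.24 FPKM in WTDR (3.16 to 7.32) and 16.0 in KODR (9.46 to 22.6), a log2 difference of 1.61 (SE 0.41). Cdkn1a, the cell cycle inhibitor p21 and 1 of 12 glucocorticoid targets tested, was 6.72 (5.0 to 8.45) and 29.9 (12.8 to 47.0), with 2.16 (SE 0.45). H2-D1, a class I antigen presentation gene, was 20.8 and 64.8, with 1.64 (SE 0.44). The values of Cdkn1a in the AL groups were 27.7 in WTAL and 31.0 in KOAL, so that WTDR stood below the other 3 groups. The same held for Hspa1a, at 13.9 in WTAL and 12.9 in KOAL, and for H2-D1, at 48.8 and 41.4. The difference of WTDR from the AL groups was not tested.

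Outside the lists, the largest differences among entries at 1 FPKM or more in each group included Calca, the CGRP and calcitonin gene (2.96, SE 0.72), Kcng4, a silent potassium channel subunit (2.80, SE 0.55), and Lhx5, a neuronal homeobox factor (2.18, SE 0.61). Ahnak2 had 2.64 (SE 0.55) and Klhdc7a 2.49 (SE 0.67). Gm26094 had 2.2 (SE 0.35) and lies among near-identical small RNA copies on chromosome 7, where the split of reads is uncertain. At the highest levels, Slc25a4, the mitochondrial ADP/ATP carrier, was 305 FPKM in WTDR and 897 in KODR (1.56, SE 0.41), and Eef2, a translation elongation factor, was 238 and 661 (1.48, SE 0.45). Chga, chromogranin A of secretory granules, was 136 and 263 (0.95, SE 0.29). The calls of Lhx5, Klhdc7a, Slc25a4, Eef2 and Chga were lost after centring on the median and within GC bins.

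The difference rose with transcript GC content. Among 5 bins of equal size, in the one with the lowest GC, 17.1% to 44.4%, the median log2 difference was -0.12, and it was 0.10, 0.23, 0.38 and 0.54 in the following bins. Up-regulated entries numbered 11, 7, 20, 31 and 76 in these bins. The median GC content was 56.1% over the up-regulated entries and 50.1% over all tested. Under AL the medians of the bins were 0.18, 0.09, 0.07, 0.08 and 0.23. GC content is from the longest GENCODE transcript of a symbol, held for 91.4% of tested entries but for 76.9% of the down-regulated ones. The 20 down-regulated entries with a transcript had a median GC content of 44.1% and numbered 10, 4, 3, 1 and 2 in the bins. Entries without a transcript are not covered. With values centred within GC bins, 46 entries were up-regulated and 44 down-regulated, and the part of GC content in the calls was not tested further.

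**Figure D5:**
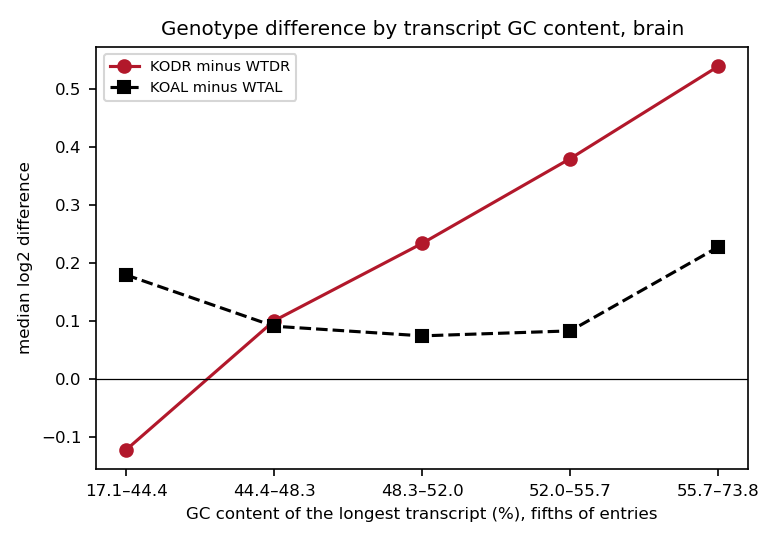
Median log2 difference of entries in 5 equal bins of transcript GC content, for KODR minus WTDR in red and KOAL minus WTAL in black. The restricted contrast climbs from -0.12 to 0.54, and the ad libitum contrast stays between 0.07 and 0.23.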

How the data were processed

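RNA was poly(A)-selected from brain and sequenced single-end on an Ion Proton. Per the labels and the study's methods, the authors trimmed reads (cutadapt 1.5), aligned them to GRCm38 and ran Cuffdiff 2.2.1. The deposited table gives the authors' FPKM per gene and group with a 95% interval. Per-library values and depth were not used here, and 0 columns of per-sample values were left out. Short or GC-biased reads and the split of multi-mapped reads affect such values.

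The SD was (upper bound - FPKM)/2. Log2 ratios were tested by a two-sided Wald test with a delta-method SE, normal reference and Benjamini-Hochberg adjustment (FDR 10%). Entries needed an FPKM above 0 in both groups and at least 1 in 1 of them. Python 3.11.15, numpy 2.4.6, pandas 2.3.3 and scipy 1.17.1 were used. The test was tried on simulated data with known changes. It held its FDR where the error was log-normal. It made too many false calls where the error was gamma or normal with an SD that scales with the value, for the gamma error mostly at entries whose SD exceeded 50% of the FPKM. The FDR stated here therefore depends on the error model.

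Named genes were Irs1, up to 4 members per list by Wald statistic plus called ones, the 15 called entries with the largest change per direction and the 10 with the highest FPKM. Some entries that this rule names are not reported here. Members and lists were chosen with earlier results of these data known. The labels give as many mice as libraries in each group, and p-values rest on the intervals that Cuffdiff estimated. These need not reflect the spread between mice. For mt-Td, as an example, the SD was only 0.754% of the FPKM in KODR and 1.08% in WTDR.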

Additional observations from a re-analysis of the deposited data

Results flagged for a closer look

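The following named entries passed the Wald test of the difference between the contrasts (KODR minus WTDR, less KOAL minus WTAL). Benjamini-Hochberg adjustment was over 14691 entries at an FDR of 10%. These entries had also been called in KODR against WTDR, which is part of the interaction, so the list is not independent of those calls. Slc6a3, Chrna6, Slc18a2, Tph2, Slc6a5 and En2 were under 1 FPKM in both WTDR and KOAL. The sign of their interaction was set by the FPKM limit. Positive interactions on the log2 scale were 11.83 for Slc6a3, 8.34 for En1, 8.26 for Chrna6, 7.79 for Tph2, 7.76 for Slc6a5, 6.0 for Slc18a2, 5.44 for En2, 4.96 for Glra1, 4.63 for Ret, 4.41 for Ddc, 4.19 for Th, 3.49 for C1ql2 and 3.47 for Kcng4. Negative interactions were -6.95 for the joined Gas5 entry, -6.79 for mt-Nd3, -6.64 for Gm28438, -6.63 for Gm10925, -6.37 for mt-Rnr1, -3.26 for mt-Th, -3.13 for Rpl39, -2.91 for Chchd10 and -2.62 for the joined Mir700 and Rcan3 entry. Each contrast compares groups of 2 or 3 libraries of which only pooled values were used, so no library could be left out. The mt-Th value rests on a very narrow deposited interval. The Gas5 value has an SE of 1.89, and its FPKM interval is 0 to 1322 in KOAL and 0 to 21.9 in WTAL. For Gm10925 the interval in WTDR is 0 to 18305. In that Wald test En1, Glra1, En2, Kcng4, Rpl39 and the Gas5 entry had adjusted p-values from 0.051 to 0.088, near the limit.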

How the results depend on the processing

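Of 68 named entries, 0 changed direction under any of the 16 alternatives. Only centring and rescaling can alter a sign, and the entries were named for their calls, so this is no evidence of stability. Of the 68, 3 (mt-Td, mt-Th and mt-Tt, with very narrow intervals) kept their call under all alternatives that could be computed. The counts depended strongly on how the intervals were read. Up-regulated entries numbered 93 at an FDR of 5%, 2210 with the SD divided by the square root of the number of libraries, 3 with a t distribution, 235 by intervals that do not overlap, 56 with a Wald test on the FPKM difference, 62 after centring on the median, 65 after rescaling without mitochondrially encoded entries and 46 after centring within GC bins (chosen after seeing the data). Down-regulated entries numbered 17, 616, 2, 63 and 17 in the first 5 of these, 43 with a pseudocount of 1, 44 after centring on the median and 44 within GC bins. Interaction calls numbered 800 with the smaller SD, 2 with a t distribution and 36 without entries whose SD exceeds 50% of the FPKM. That last alternative was added after the simulated test failed its FDR under gamma and normal error, and gave 161 up-regulated and 27 down-regulated entries, of which 143 and 24 were also called without it. Requiring an SD of at least 10% of the FPKM gave 129 and 22. The mitochondrial share in KODR was 3.77% without tRNA entries. Irs1 was no longer called under 7 settings: an FDR of 5%, a t distribution, a Wald test on the FPKM difference, no FPKM minimum, centring on the median, centring within GC bins and the rescaling. No paired analysis was possible because the deposited columns are pooled per group and carry no replicate numbers, and leaving out single libraries could not be run for the same reason. The depth of the libraries is unknown, which limits what a missing call means.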
